A study of Mus musculus with 37 samples.

Results

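The 9 genes described here are Anxa1, Anxa3, Msln, Ly6a, Clu, Il33, Il1rn, Emp1 and Sprr2a3, which are named together as markers of a fetal-like, regenerative state of the intestinal epithelium. They were taken by symbol from the 3 UMI count tables and were found in all of them, 9 of the 31533 gene symbols listed. The group was chosen by measured expression values of these data, and the record does not state which comparison served for the choice. The differences in whole organoids and with irradiation, where these genes were higher, are therefore given as a description. Calls of the fit over all genes are counted there, but no p is given and nothing is read from the counts. Adjusted p-values are printed for VIP in sorted cells, where no gene with enough counts passed in the main fits. Of the 9 genes 2 were tested at 72 h and 7 in the irradiation experiment. Sprr2a3 passed in some other settings, given below. VIP in sorted cells may also have served for the choice, so its values are no independent test.

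In 37 libraries from 31 samples, RNA was sequenced from jejunal organoids, which are epithelial cultures grown from intestinal crypts of adult mice. Vasoactive intestinal peptide (VIP), a neuropeptide of the enteric nervous system, was given at 100 nM to whole organoids of C57Bl/6 mice for 72 h (4 VIP-treated and 3 untreated samples, 3 mice with both). It was given for 72 h to organoids of Lgr5-EGFP-IRES-CreERT2 reporter mice from which live Lgr5-EGFP+ cells were sorted (4 and 4 samples). In the third experiment sorted Lgr5-EGFP+ cells came from organoids exposed to 6 Gy or to no irradiation, each with or without VIP for 48 h (4 samples in each of the 4 groups, the same 4 mice in all). In the reporter line EGFP is driven from the Lgr5 locus, and the EGFP gate is what defines the sorted cells. Controls received no VIP, and each mouse stands for 1 organoid line.

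In the adult crypt, stem cells that express Lgr5 divide and replace the epithelium. After injury, surviving epithelial cells are known to switch on genes that are otherwise characteristic of the fetal intestine, among them Ly6a (Sca-1), Anxa1 and Clu, while genes of the adult stem cell are turned down. Clu marks rare cells that can rebuild the stem cell pool after irradiation, and the programme is known to depend on the transcriptional coactivator YAP, which acts through TEAD factors.

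All 9 genes are protein coding. On GRCm38 (positions from GENCODE M21), Il1rn lies on chr2:24336853-24351494, Sprr2a3 on chr3:92285417-92291405, Anxa3 on chr5:96793339-96845966, Emp1 on chr6:135362545-135383173 and Clu on chr14:65968483-65981547, all on the plus strand. Ly6a lies on chr15:74994877-74998031 and Msln on chr17:25748613-25754378, both on the minus strand. Anxa1 (chr19:20373428-20390944, minus strand) and Il33 (chr19:29925114-29960718, plus strand) share chromosome 19.

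Promoter sequence was held for 5 of the 9 genes (Anxa1, Il33, Il1rn, Emp1 and Sprr2a3), in 9 windows of 250 bases before an annotated RefSeq start. The bases upstream of 1 RefSeq start each of Il33, Il1rn and Emp1 are shown because they hold the motif matches of genes that moved together in whole organoids. The Il33 and Il1rn stretches lie before the gene spans given above. The Emp1 stretch lies inside the span of its gene, downstream of the GENCODE start, so it may not be promoter sequence. Bases in annotated exons were left out, sequences run 5′ to 3′ on the plus strand of GRCm38.p6, and capitals mark matches to the letters searched.
Il33, chr19:29924863-29925112: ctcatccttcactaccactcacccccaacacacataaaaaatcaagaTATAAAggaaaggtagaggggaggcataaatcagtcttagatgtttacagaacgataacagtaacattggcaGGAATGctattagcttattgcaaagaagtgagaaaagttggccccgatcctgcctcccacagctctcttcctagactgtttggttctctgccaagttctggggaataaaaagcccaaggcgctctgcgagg
Il1rn, chr2:24336610-24336852: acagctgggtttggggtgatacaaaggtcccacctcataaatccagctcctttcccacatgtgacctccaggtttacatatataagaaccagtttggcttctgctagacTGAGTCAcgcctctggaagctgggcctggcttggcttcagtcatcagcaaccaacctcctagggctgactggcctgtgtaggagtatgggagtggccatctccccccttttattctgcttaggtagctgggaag
Emp1, chr6:135362708-135362903: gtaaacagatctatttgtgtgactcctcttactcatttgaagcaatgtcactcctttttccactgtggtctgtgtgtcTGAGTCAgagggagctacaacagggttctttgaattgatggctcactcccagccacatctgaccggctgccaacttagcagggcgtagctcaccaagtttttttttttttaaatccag

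Motifs of 4 kinds were searched on both strands, none of which overlapped another in the sequences shown. The AP-1 letters TGANTCA were found in windows of Il1rn and Emp1 (2 of 9 windows, against 6.75% of 32851 promoter windows in all). The TEAD letters GGAATG were found in 4 of 9 windows, belonging to Anxa1, Il33 and Il1rn (12.6% of all). TATAAA was found in 3 windows, of Anxa1 and Il33 (12.4% of all). TGACG, letters of the site bound by the cAMP-responsive factor CREB, was found in 0 of 9 windows (17.8% of all). These are matches of letters in short windows and say nothing about binding.

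Depth was 3722716 to 6330404 UMIs per whole-organoid sample, 575242 to 1104126 per sorted sample of the 72 h experiment and 1075715 to 1876729 per sample of the irradiation experiment. Levels are CPM, the UMI count of a gene scaled to a fixed library total and by TMM factors within an experiment, and are not comparable between experiments. The 14 genes listed for adult stem cells all carried counts in sorted cells, where they summed to 4692 to 7226 CPM per sample at 72 h. Most of that sum was Olfm4, a stem cell marker at 4191 ± 735 CPM (SD, n = 4) in untreated sorted cells of that experiment. Lgr5 itself, whose locus drives the sorted reporter, was at 34.9 ± 14.6 CPM there (n = 4) and at 20.4 ± 7.71 CPM in untreated, non-irradiated cells of the irradiation experiment (n = 4), and at 76.7 ± 28.3 CPM in untreated whole organoids (n = 3). Lgr5 was thus not higher in the sorted cells, in experiments that were scaled separately, and the difference was not tested. In 1 culture of whole organoids, VIP-treated mouse 3, the 2 technical replicate libraries did not agree. Their correlation across genes was 0.944, against 0.981 to 0.987 in the other cultures with 2 libraries. The summed level of the 9 genes was 209 CPM in the library labelled as its second technical replicate and 1334 CPM in its first. In the 5 control libraries this sum was 200 to 252 CPM and in the other 7 libraries of VIP-treated cultures 605 to 1334 CPM. Across genes this second library correlated at 0.977 to 0.982 with the control libraries of mice 1 and 2. With the control library of mouse 3 the value was 0.960, and with VIP libraries of other mice 0.967 to 0.977. Its Lgr5 was at 95.2 CPM, against 43.3 CPM in the first library and 42.4 CPM in the control of mouse 3. The library thus goes against its label for these genes, and across genes it was least like the other libraries of its mouse. Its origin was not tested. The levels and fold changes of the 9 genes with VIP in whole organoids are given with and without it. Other values that use whole organoids include it unless stated.

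Whole organoids showed higher levels of all 9 genes with VIP in each of the 3 mice that had both samples. The log2 fold change, from a fit with the mouse as a block, ranged from 1.46 for Emp1 to 3.31 for Il33, with a median of 2.40. Over all 12727 genes fitted the median was −0.00. Since these values may have chosen the genes, that 9 of 9 passed an adjusted p of 0.05 (edgeR) is set beside the 3.72% of all genes called higher without a reading, and likewise the absence of overlap between VIP-treated and untreated samples in 9 of 9 genes beside 5.63% of all genes, and the higher level in every mouse beside 19.5%.

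Among the genes of surface proteins, Ly6a encodes the glycosylphosphatidylinositol-anchored protein Sca-1. It was at 12.5, 17.3 and 13.4 CPM in untreated organoids of mice 1 to 3 and at 78.4, 91.7, 55.6 and 50.1 CPM in VIP-treated organoids of mice 1 to 4. The lowest VIP-treated sample was above every control, and the log2 fold change was 2.40 ± 0.13 (SE). Msln, which encodes mesothelin, an anchored glycoprotein of mesothelium and of some epithelial tumours, went from 23.3, 27.4 and 31.1 CPM to 164, 247, 147 and 95 CPM. Its log2 fold change was 2.76 ± 0.15. Emp1, a tetraspan membrane protein of epithelia, had the smallest difference of the 9, with 44.4, 50.4 and 51.0 CPM against 116, 161, 126 and 103 CPM and a log2 fold change of 1.46 ± 0.11.

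The annexins bind phospholipid membranes in the presence of calcium, and secreted annexin A1 dampens inflammation through formyl peptide receptors. Anxa1 was at 8.28, 12.1 and 14.0 CPM in untreated and at 46.8, 60.6, 97.6 and 33.6 CPM in VIP-treated organoids, a log2 fold change of 2.54 ± 0.14. Anxa3 was at 32.1, 31.3 and 36.2 CPM and reached 150, 174, 152 and 106 CPM with VIP (2.26 ± 0.11). Clu, the secreted chaperone clusterin, was at 17.4, 17.8 and 38.2 CPM without and at 79.0, 89.8, 96.0 and 45.7 CPM with VIP (1.93 ± 0.16). For Clu the groups came close, with untreated mouse 3 at 38.2 CPM and VIP-treated mouse 4 at 45.7 CPM.

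Il33 and Il1rn belong to the interleukin-1 family: Il33 encodes a nuclear alarmin that is released from damaged cells, and Il1rn the antagonist of the interleukin-1 receptor. Il33 was at 3.38, 2.78 and 1.99 CPM in untreated and at 18.9, 20.1, 58.5 and 7.89 CPM in VIP-treated organoids, the widest difference of the 9 genes (3.31 ± 0.30). The samples with VIP spanned a wide range for this gene, and mouse 3 held the highest. Il1rn went from 13, 16.9 and 12.8 CPM to 72.5, 87.8, 103 and 57.2 CPM (2.59 ± 0.13).

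Sprr2a3 encodes a small proline-rich protein of the kind that is cross-linked into the envelope of squamous cells. It was at 75.7, 50.0 and 14.0 CPM in untreated and at 178, 203, 77.4 and 127 CPM in VIP-treated organoids (1.81 ± 0.17). The controls differed more for this gene than for the other 8, and VIP-treated mouse 3 (77.4 CPM) lay just above untreated mouse 1 (75.7 CPM). Over the last 500 bases, where 3′ counting takes its reads, the Sprr2a3 transcript was 99.2% identical to those of Sprr2a1 and Sprr2a2. Counts listed under Sprr2a3 may therefore include reads of these copies, and the value is uncertain as that of a single gene.

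**Figure D1:**
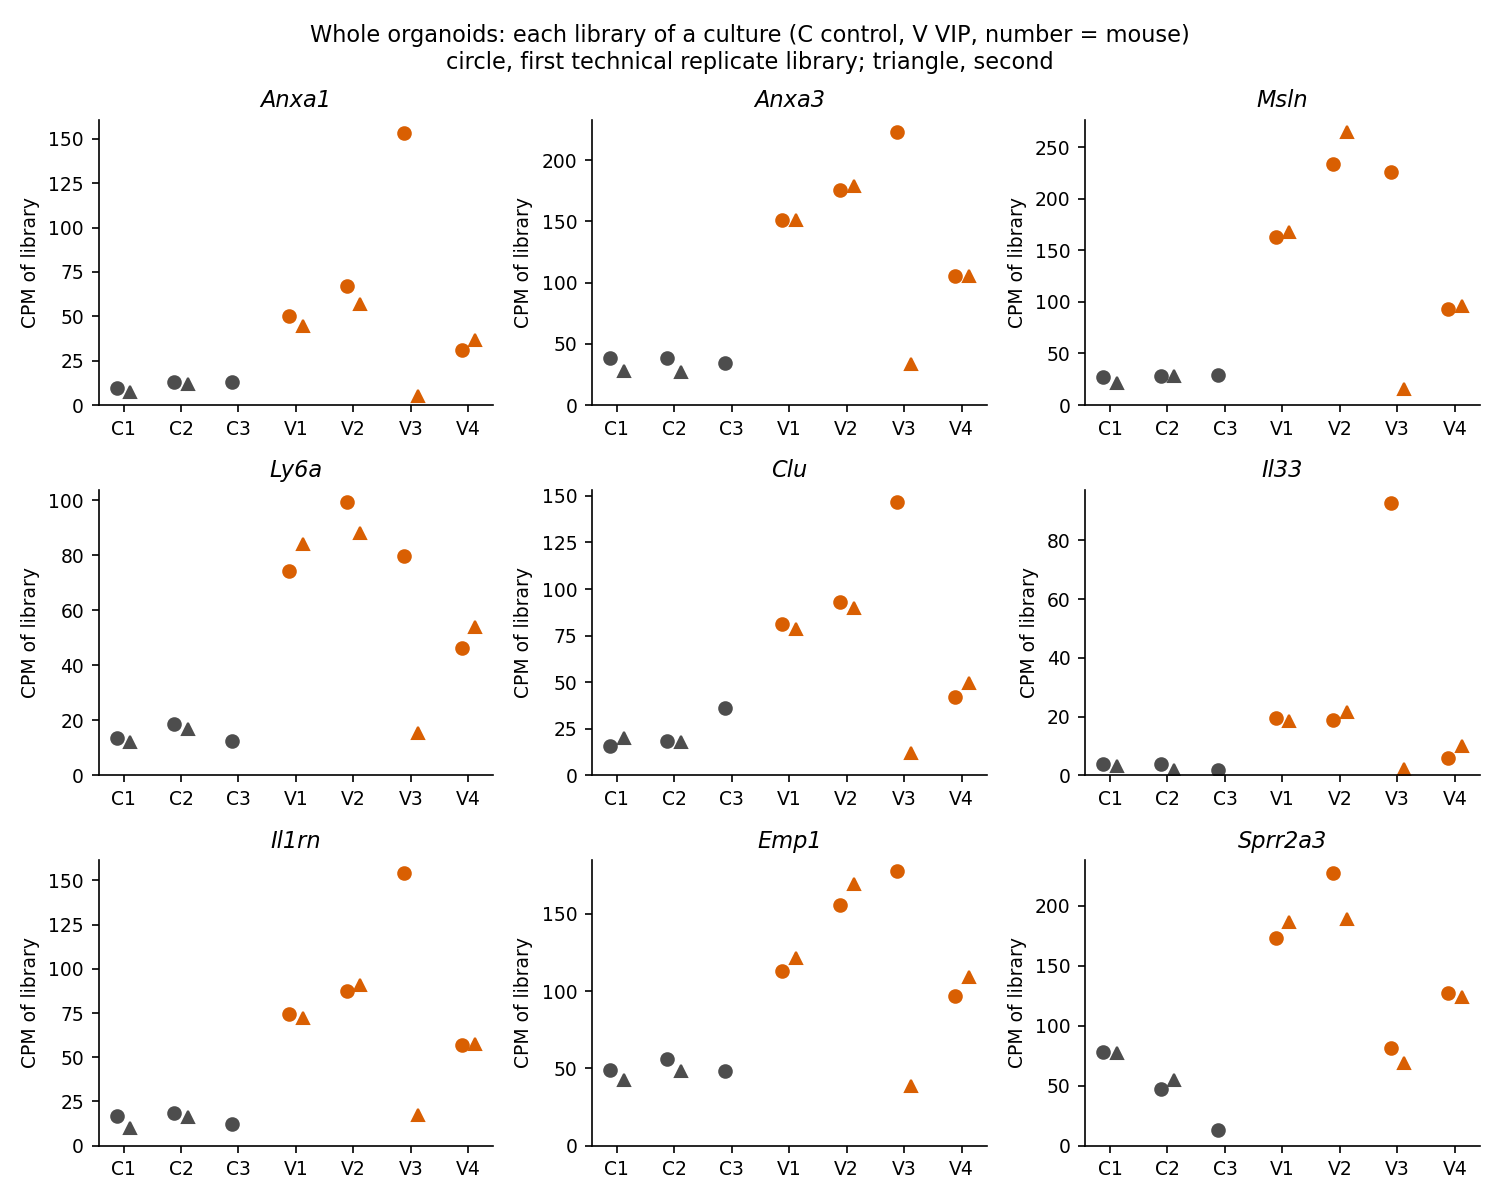
Level of each gene (CPM of the library, vertical axis from 0) in each library of the whole-organoid cultures, by culture (C untreated, V VIP-treated, with the mouse number). Circles are first and triangles second technical replicate libraries; the triangle of V3 lies near the controls for 8 of the genes, and for Sprr2a3 both libraries of V3 (81.1 and 68.7 CPM) are close to the highest control library (77.9 CPM).

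In the library of VIP-treated mouse 3 that goes against its label, 5 of the 9 genes were within the range of the control libraries and the other 4 were below it. Anxa1, for instance, was at 5.31 CPM there and at 153 CPM in the first library of the same culture. Without that library the level in VIP-treated mouse 3 was 160 CPM for Anxa1, 232 CPM for Anxa3, 235 CPM for Msln, 152 CPM for Clu, 96.4 CPM for Il33 and 160 CPM for Il1rn, each over 1.5 times the value above. It was 82.7 CPM for Ly6a, 185 CPM for Emp1 and 84.3 CPM for Sprr2a3. The log2 fold changes were then 2.80 for Anxa1, 2.45 for Anxa3, 2.97 for Msln, 2.55 for Ly6a, 2.16 for Clu, 3.65 for Il33, 2.78 for Il1rn, 1.63 for Emp1 and 1.79 for Sprr2a3. When instead the first library of that culture was left out, an alternative chosen after seeing the data, they were 0.95 for Emp1 to 2.27 for Il33, and 0 of 12748 genes tested passed the threshold in edgeR (720 at an unadjusted p below 0.05). DESeq2 was not run in that setting. With mouse 3 left out altogether 9 of 9 genes passed, beside 1084 of 12993 genes called higher. That fit had 1 residual degree of freedom and says little about stability. Among the fits that left out a mouse or a library the calls were lost only where this culture was represented by the doubtful library alone. The direction was higher for all 9 genes in each of these fits.

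Other genes of fetal or regenerating epithelium were put on a list of 33 that was drawn up with earlier results of these data known, so its values are a description too and no independent support. Of 28 with enough counts 21 were called higher and 0 lower in whole organoids, beside the 3.72% of all genes called higher, and the median log2 fold change was 1.34. Without the second library of VIP-treated mouse 3 it was 22 of 26 with a median of 1.38, beside 6.46% of all genes. The named 4 are S100a6, a calcium-binding protein (2.62 ± 0.11), Anxa10, an annexin of gastric epithelium (2.75 ± 0.12), Sprr1a (2.24 ± 0.15) and F3, which encodes tissue factor (1.61 ± 0.12).

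Relatives of Sprr2a3 and Ly6a were higher as well. Of the small proline-rich family Sprr1a, Sprr2b and Sprr2f passed beside Sprr2a3, with log2 fold changes of 2.24, 2.13 and 3.01. In the Ly6 family the values were 2.90 for Ly6d, 3.37 for Ly6m, 3.11 for Ly6c1 and 0.67 for Ly6e, and each passed. Without the second library of VIP-treated mouse 3 the calls were 4 of 4 in the Sprr and 6 of 6 in the Ly6 family, members included, with medians of 2.23 and 3.13. Receptors that would respond to the proteins were scarce: 1 UMI over 3 untreated and 1 over 4 VIP-treated samples was listed for Il1rl1, the receptor of interleukin-33, and 1 and 3 for Il1r1. Of 12 ligands and receptors listed as partners 3 could be tested in whole organoids and 0 were called, namely Vldlr (0.29 ± 0.22) and Lrp8 (0.03 ± 0.15), both receptors that can bind clusterin, and Il1rap, the shared co-receptor (0.42 ± 0.33). Their adjusted p-values were 0.579, 0.955 and 0.597, and without that library 0 of 3 were called as well.

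Of 14 adult stem cell genes 0 were called in either direction with VIP in whole organoids (edgeR, 3 at an unadjusted p below 0.05), and their median was −0.09. Without the second library of VIP-treated mouse 3, 1 was called lower. Markers of other cell types were examined because Msln, Ly6a, Anxa1 and Il33 are also expressed outside the epithelium. Fibroblast markers summed to 0 to 0.175 CPM in whole organoids and endothelial markers to 0 to 0.917 CPM. For the immune list the sum was 4.96 to 9.40 CPM without and 6.29 to 10.1 CPM with VIP, and for mesothelium 1.14 to 16.9 CPM and 6.89 to 14.5 CPM. In the mesothelial list no UMI was listed for Wt1 and Muc16, and 1 gene was tested and not called. Counts below of genes higher or lower are of genes called, beside 3.72% of all genes called higher. Lists with calls for VIP in whole organoids were goblet cells (6 of 7 tested genes higher), surface cells of the stomach (3 of 3 higher, with sums of 10.5 to 16.9 CPM without and 41.8 to 176 CPM with VIP) and immediate early or heat-shock genes that respond to handling (6 of 9 higher). The general epithelial list had 4 of 7 higher, with sums of 6121 to 7579 CPM without and 8061 to 8919 CPM with VIP. The enterocyte list had 1 of 8 higher and 2 lower, with sums of 16430 to 17680 CPM without and 13186 to 15964 CPM with VIP. In the interferon list 1 of 7 and in the p53 list 1 of 10 were higher, and 0 of 6 Paneth, 0 of 4 enteroendocrine and 0 of 3 tuft cell genes were called, with 1, 0 and 0 at an unadjusted p below 0.05. Without the second library of VIP-treated mouse 3 the enterocyte list had 2 higher and 3 lower, and 7 of 7 goblet, 2 of 6 Paneth and 2 of 10 p53 genes were called higher. Their part in the levels of the 9 genes was not tested. In bulk RNA a larger share of cells that express a gene and more RNA per cell cannot be told apart.

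Sorted Lgr5-EGFP+ cells treated with VIP for 72 h came from 4 other mice and had less depth than whole organoids. Of the 9 genes, 2 had enough counts for the test and 0 of 2 were called (0.0885% of all 6778 genes tested were called in either direction in edgeR, 375 genes had an unadjusted p below 0.05, and DESeq2 called 2 genes). Emp1 was at 25.6, 24.5, 7 and 36.3 CPM in untreated and at 20.5, 32.3, 13 and 14 CPM in VIP-treated samples of mice 1 to 4, a log2 fold change of −0.21 ± 0.34 with an adjusted p of 0.965. Sprr2a3 was at 14.4, 76.9, 12.3 and 82.5 CPM without and at 14.3, 62.8, 19.4 and 86.9 CPM with VIP (0.00 ± 0.23, adjusted p = 1). Its level followed the mouse: mice 2 and 4 were high and mice 1 and 3 low under both conditions.

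The other 7 genes had few UMIs and were not tested. Clu had 4, 1, 1 and 3 UMIs in untreated and 17, 4, 9 and 11 UMIs in VIP-treated cells. Anxa1 had 5, 4, 4 and 1 UMIs without and 40, 7, 5 and 9 with VIP, and Anxa3 had 8, 13, 4 and 1 without and 24, 10, 19 and 10 with VIP. In CPM these 3 genes were higher with VIP in 4 of 4 mice and the groups did not overlap. Of the 20500 genes with a count 4.24% were higher in every mouse and 1.1% had no overlap. Only 6778 of them passed the count filter, and a gene without a UMI in each VIP-treated sample can meet neither condition. These shares are thus low as a background, and shares among genes of like counts were not computed. A fit without the filter on low counts gave log2 differences of 1.68 ± 0.44 for Anxa1, 1.18 ± 0.38 for Anxa3 and 1.87 ± 0.52 for Clu, with adjusted p-values of 0.133, 0.572 and 0.192 in edgeR, so none of the 3 passed.

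For Il1rn there were 2, 1, 4 and 2 UMIs without and 10, 10, 0 and 8 with VIP, higher in 3 of 4 mice. Ly6a had at most 4 UMIs in any sample. Msln had 1 UMI over the 4 untreated samples and 5 over the VIP-treated ones, all of them in mouse 1. Il33 was not detected in the untreated samples, which at 3 counts per library allows up to 3.49 to 5.25 CPM, and its 5 UMIs with VIP were also all in mouse 1. At this depth Ly6a, Msln and Il33 were below the count filter, so a difference in them was not tested in the main fit. The smallest difference that could be detected was not computed.

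**Figure D2:**
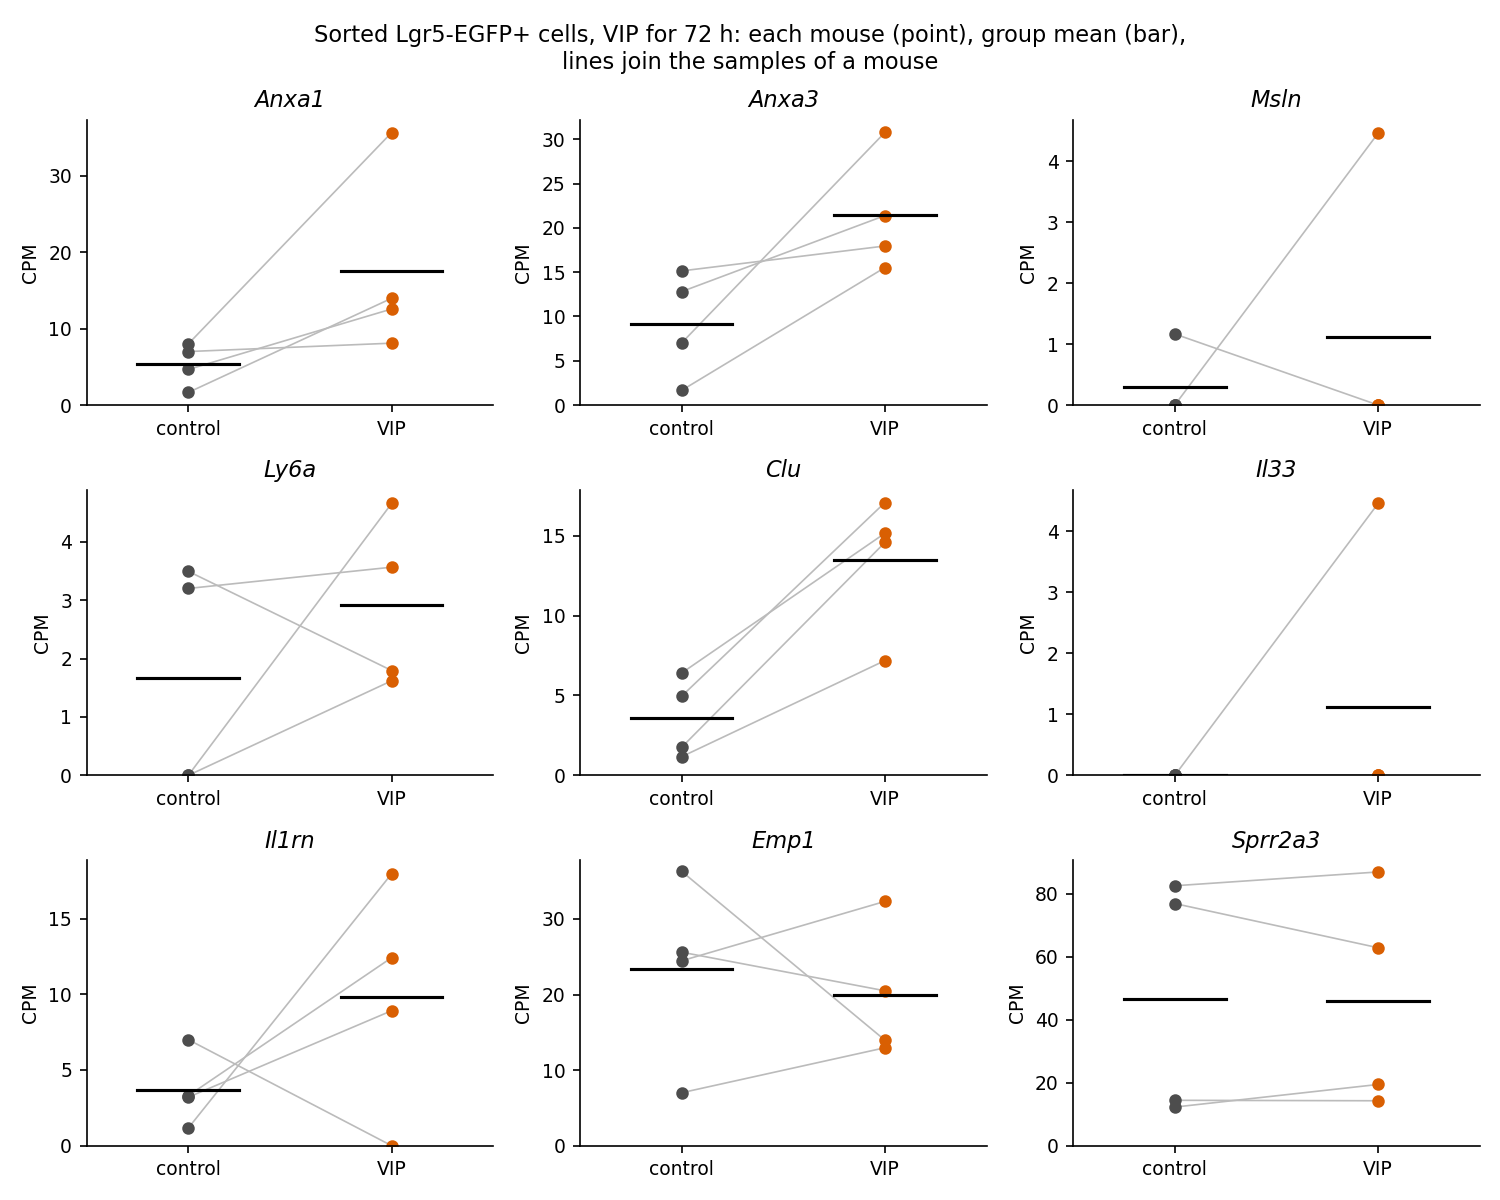
Level of each gene (CPM, vertical axis from 0) in sorted Lgr5-EGFP+ cells after 72 h without (grey) and with VIP (orange), where points are mice, bars group means and lines join the samples of a mouse. Clu, Anxa1 and Anxa3 are higher with VIP in each of the 4 mice, and Sprr2a3 splits by mouse and not by treatment.

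Of the other fetal or regenerative genes 12 could be tested in these sorted cells. S100a6 was called higher (1.68 ± 0.16), and the next by p did not pass: S100a11 was at 0.64 ± 0.15 (adjusted p = 0.0877), Cd44 at 0.65 ± 0.21 (0.637) and Lamb3 at 0.63 ± 0.33 (0.884). The median of the list was 0.21. Ly6e, the relative of Ly6a with counts enough for the test, was at 0.49 ± 0.19 (adjusted p = 0.884). Mesothelial, fibroblast and endothelial markers carried 0 UMIs in the VIP-treated samples. In the untreated samples they summed to 0 to 8.15, 0 to 1.65 and 0 to 1.75 CPM.

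The difference between compartments, sorted cells against whole organoids in 1 fit, holds the whole-organoid response that may have chosen the genes, so it is a description and no p is given. It was −1.67 ± 0.34 on the log2 scale for Emp1 and −1.82 ± 0.31 for Sprr2a3, a smaller response to VIP in sorted cells. The compartments were separate experiments that also differed in mouse line, mice and depth, and these cannot be told apart. By edgeR 2 of 9 genes passed the threshold, to be set beside 0.128% of all genes called lower without a reading. For Anxa3, Ly6a, Il1rn, Msln and Anxa1 the differences were −1.10, −1.71, −1.04, −1.04 and −0.80, and for Clu −0.03 ± 0.87. Il33 was at 1.67 ± 2.93, where 0 UMIs in all untreated sorted samples leave the value without a base. Without the second library of VIP-treated mouse 3 the values were −1.85 for Emp1 and −1.83 for Sprr2a3, and without its first library −1.16 and −1.79.

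The irradiation experiment gave sorted cells with more depth. In cells without VIP 6 of the 7 genes with enough counts were called higher after 6 Gy (edgeR, adjusted p of 0.05 or less), beside 2.87% of all 9976 genes called higher. The median log2 fold change of the 7 was 1.10, and over all genes it was −0.00. In 5 of the 9 genes all irradiated samples were above all non-irradiated ones, which held for 4.62% of all genes.

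Anxa3 was at 78.1, 57.5, 53.7 and 52.6 CPM in non-irradiated and at 115, 113, 116 and 138 CPM in irradiated cells of mice 1 to 4. All 4 irradiated samples were above all 4 controls, and the log2 fold change was 0.99 ± 0.12. Anxa1 went from 35.9, 37.7, 39.6 and 32.2 CPM to 59.6, 58.1, 90.7 and 68.1 CPM (0.91 ± 0.14). Clu went from 50.8, 27.8, 43.0 and 31.6 CPM to 69.0, 114, 54.4 and 91.1 CPM (1.10 ± 0.21). The groups did not overlap for Clu, but its irradiated samples were spread widely, and its call was lost without mouse 2.

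Ly6a went from 13.6, 8.04, 11.3 and 11.2 CPM to 35.1, 30.9, 14.3 and 30.4 CPM (1.34 ± 0.25). Mouse 3 differed least, but was still above every non-irradiated sample. Il1rn went from 11.8, 9.89, 9.61 and 10.5 CPM to 33.3, 26.6, 18.1 and 28.5 CPM (1.38 ± 0.23), again with the smallest difference in mouse 3.

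Emp1 was at 12.4, 8.66, 9.61 and 4.61 CPM without and at 22.2, 17.4, 8.59 and 33.1 CPM with irradiation (1.16 ± 0.31), higher in 3 of 4 mice. Its call was lost without mouse 2, without mouse 4 and when only the 2 groups compared entered the fit. Sprr2a3 did not pass, with 14.3, 13.6, 4.52 and 4.61 CPM against 16.4, 8.69, 16.2 and 24.8 CPM (0.76 ± 0.39). Il33 had 3 UMIs over the 4 non-irradiated and 11 over the 4 irradiated samples, and Msln 4 and 7, too few for a test.

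In VIP-treated cells 5 of the 7 genes were called higher after irradiation, beside 4.32% of all genes called higher and 6.26% without overlap. These were Anxa1 (1.37 ± 0.14), Anxa3 (1.17 ± 0.12), Il1rn (1.71 ± 0.22), Clu (1.14 ± 0.22) and Ly6a (1.39 ± 0.27), each higher in 4 of 4 mice without overlap. Emp1 (0.57 ± 0.27) and Sprr2a3 (−0.27 ± 0.32) were not called. Il33, with 0, 1, 2 and 1 UMIs without and 5, 3, 13 and 4 with irradiation, was not tested, and a fit without the filter gave 2.28 ± 0.72.

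**Figure D3:**
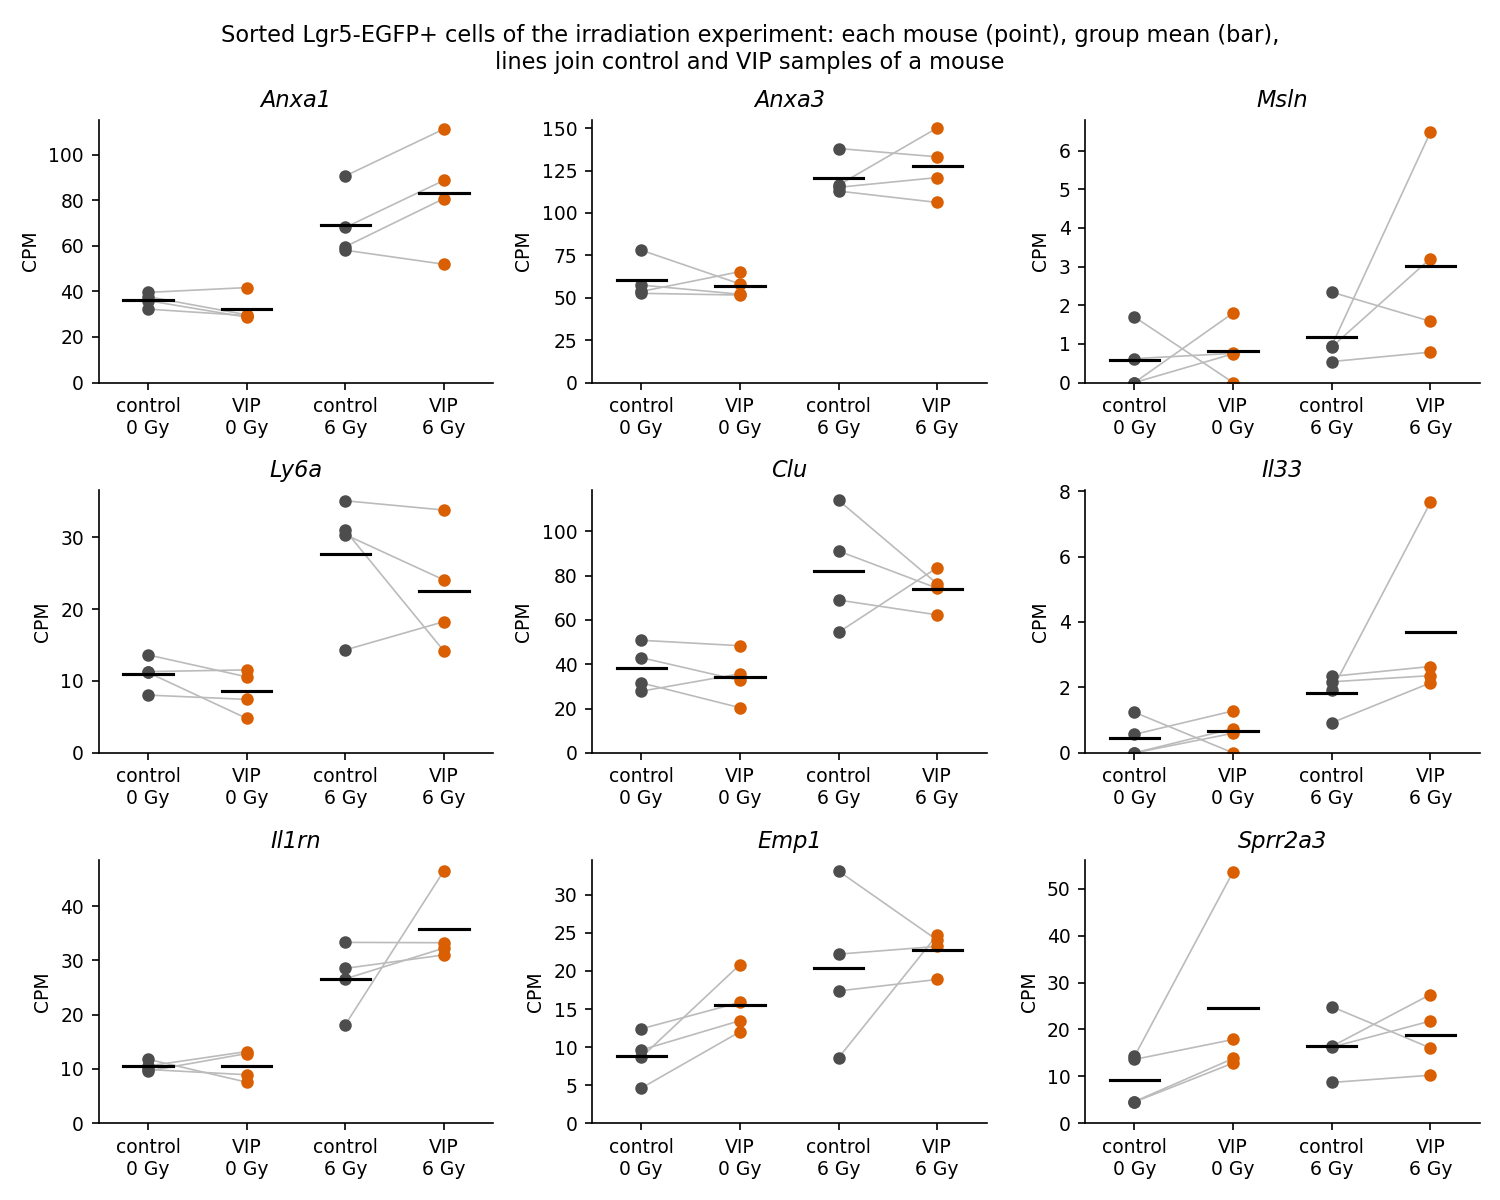
Level of each gene (CPM, vertical axis from 0) in sorted Lgr5-EGFP+ cells of the irradiation experiment by group, where points are mice (grey untreated, orange VIP-treated), bars group means and lines join untreated and VIP-treated samples of a mouse. For Anxa1, Anxa3, Ly6a, Clu and Il1rn all samples at 6 Gy lie above all samples at 0 Gy of the same treatment, while control and VIP samples overlap.

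None of the 7 genes passed the test for VIP in non-irradiated or in irradiated cells of this experiment. In non-irradiated cells 0 of 7 were called in edgeR, 2 had an unadjusted p below 0.05, DESeq2 called 0, and 0.742% of all genes were called in either direction. Anxa1 was at 28.7, 29.8, 41.7 and 29.4 CPM with VIP, against the untreated values above (−0.18 ± 0.16), Anxa3 at −0.09, Clu at −0.19, Ly6a at −0.37 and Il1rn at 0.05. Emp1, at 15.9, 20.8, 13.5 and 12 CPM with VIP, was higher in 4 of 4 mice, as were 10.2% of all genes (0.78 ± 0.32, adjusted p = 0.303). So was Sprr2a3, at 53.6, 17.9, 12.8 and 13.8 CPM (1.32 ± 0.36, adjusted p = 0.0838), in which mouse 1 stood far above the others. Sprr2a3 passed when no filter on low counts was used (adjusted p = 3.44e-05) or when only the 2 groups compared were fitted (0.00677).

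In irradiated cells VIP gave 0 of 7 calls in edgeR (1 at an unadjusted p below 0.05) and 0 in DESeq2, with 0.221% of all genes called. Anxa1 was at 80.8, 51.9, 111 and 88.8 CPM with VIP (0.28 ± 0.13, adjusted p = 0.796) and Il1rn at 33.3, 32.3, 46.5 and 31.0 CPM (0.38 ± 0.19, adjusted p = 0.876), each higher in 3 of 4 mice. Clu was at 62.3, 76.3, 83.6 and 74.3 CPM (−0.15 ± 0.19) and Ly6a at 33.8, 14.2, 18.3 and 24.1 CPM (−0.32 ± 0.22). Adjusted p-values of the 7 genes ran from 0.796 to 0.975. The interaction, which asks whether the response to VIP differed between irradiated and non-irradiated cells, was called for 0 of 7 genes, of which 1 had an unadjusted p below 0.05. This was Anxa1 (0.46 ± 0.20, adjusted p = 0.741). No gene passed this test in edgeR with the filter on low counts (0 of 9976, with 634 at an unadjusted p below 0.05), nor in DESeq2 (266 at an unadjusted p below 0.05). The 4 groups share samples between these comparisons, which are therefore not independent of each other.

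**Figure D4:**
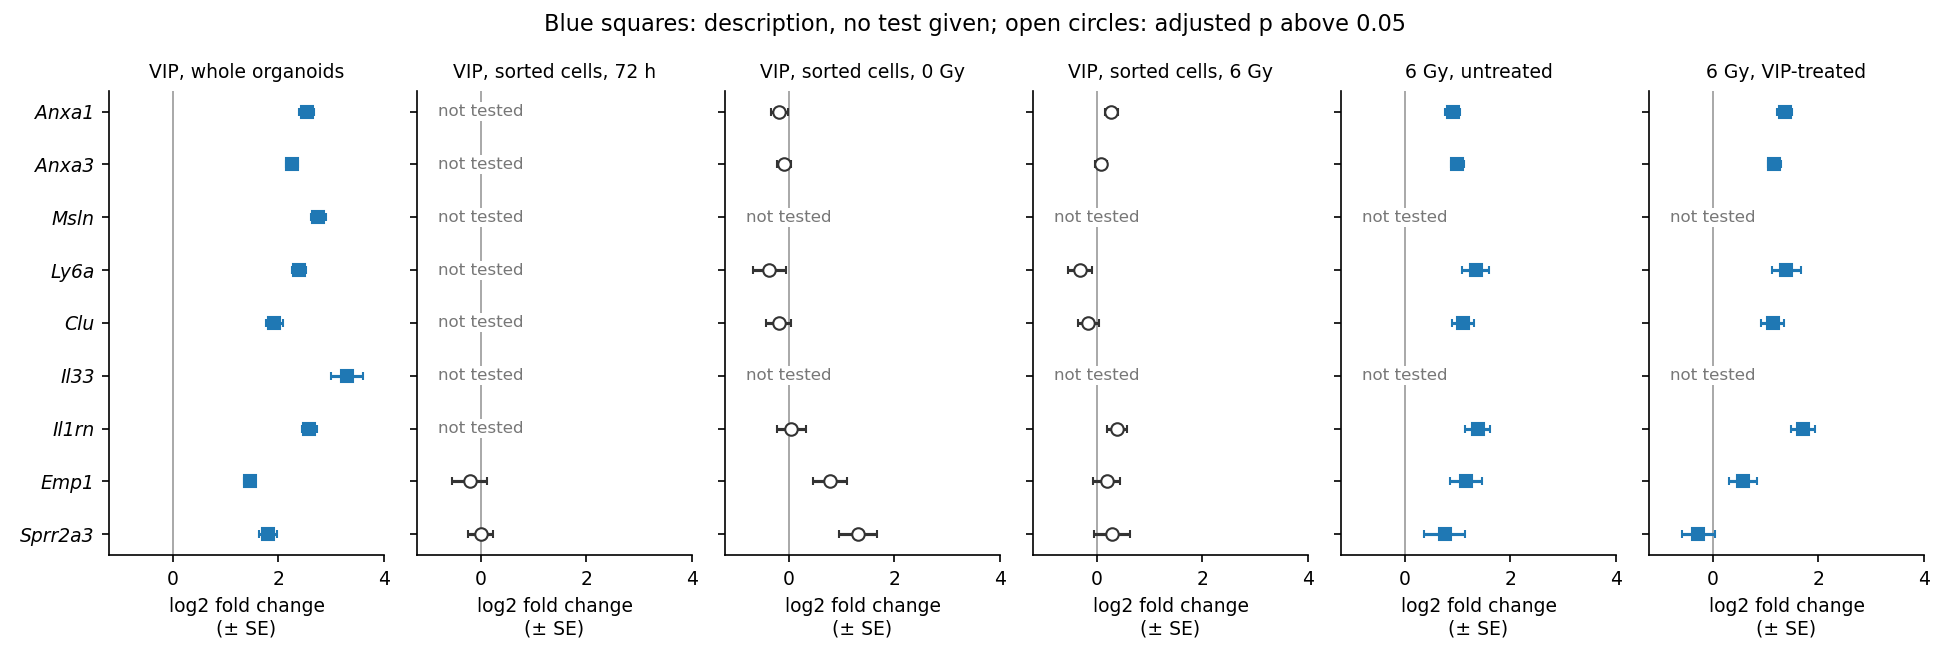
Log2 fold change with its standard error (horizontal axis) of each gene in 6 comparisons from edgeR fits with the mouse as a block. Squares are values in whole organoids and with irradiation, for which no test is given, and open circles are values for VIP in sorted cells, none of which passed an adjusted p of 0.05. The squares run from 1.46 to 3.31 in whole organoids and from 0.76 to 1.38 with irradiation of untreated cells and from −0.27 to 1.71 with irradiation of VIP-treated cells.

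Within the irradiation experiment the levels of Anxa1, Anxa3, Ly6a, Clu and Il1rn were ordered by irradiation, with both irradiated groups above both non-irradiated ones. Mean levels of Anxa3 were 128 ± 18.6 CPM (SD, n = 4) with VIP and 121 ± 11.7 CPM without VIP in irradiated cells, and 56.8 ± 6.47 and 60.5 ± 11.9 CPM in non-irradiated cells. For Anxa3, neighbours within each pair differed by less than the SD of levels between mice. This did not hold for all of these genes. Il1rn in irradiated cells was at 35.8 ± 7.23 CPM with VIP and at 26.6 ± 6.34 CPM without (SD, n = 4). The 9 genes together summed to 147 to 219 CPM and 148 to 224 CPM in non-irradiated cells without and with VIP, and to 322 to 416 CPM and 313 to 470 CPM in irradiated ones.

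Other lists had calls for irradiation in the same samples. Of the p53 response, known to follow DNA damage, 9 of 10 genes were called higher in untreated cells, with a median of 1.23. Called higher were also 6 of 6 Paneth cell, 5 of 7 goblet cell, 3 of 8 enterocyte (median 0.85) and 2 of 7 general epithelial genes. Over all genes 2.87% were called higher there. Of 4 enteroendocrine genes 2 were called higher, and their sum was 978 to 1318 CPM without and 1479 to 3438 CPM with irradiation. Of 13 adult stem cell genes 0 were called higher and 2 lower, and of 10 handling genes 1 higher and 1 lower. Called or not, the log2 fold change was positive in 7 of 7 goblet, 8 of 8 enterocyte, 4 of 4 enteroendocrine and 8 of 13 adult stem cell genes. In VIP-treated cells 9 of 10 p53 (median 1.75), 6 of 6 Paneth and 3 of 7 goblet genes were called higher, beside 4.32% of all genes. So were 3 of 4 enteroendocrine, 1 of 8 enterocyte, 3 of 7 general epithelial and 1 of 10 handling genes. Called lower were 1 of 7 general epithelial and 3 of 13 adult stem cell genes. The summed level of the adult stem cell list was 3909 to 5027 CPM in non-irradiated and 2987 to 3516 CPM in irradiated untreated cells. Fibroblast markers summed to at most 0.62 CPM and immune markers to 2.63 to 11.8 CPM without and 7.64 to 9.20 CPM with irradiation in these cells. The part of such changes in the levels of the 9 genes was not tested.

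Of the other fetal or regenerative genes 14 of 22 were called higher and 0 lower with irradiation in untreated cells, beside the 2.87% given above, with a median of 0.49. The named 4 are Cldn4, a tight junction protein (1.36 ± 0.11), Areg, which encodes the growth factor amphiregulin (1.29 ± 0.16), S100a6 (0.67 ± 0.09) and S100a11 (0.48 ± 0.08). In VIP-treated cells 18 of 22 were called higher and 0 lower, beside 4.32%, with a median of 0.67, led by the same 4 genes. With VIP, 0 of 22 passed in non-irradiated cells (2 at an unadjusted p below 0.05), and in irradiated cells S100a6 alone of the 22 was called (0.56 ± 0.09). Ly6d and Ly6e were called higher with irradiation of VIP-treated cells (1.65 ± 0.44 and 0.36 ± 0.11). In untreated cells Ly6e was called higher (0.54 ± 0.11) and Ly6d was at 1.22 ± 0.42 and not called.

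**Figure D5:**
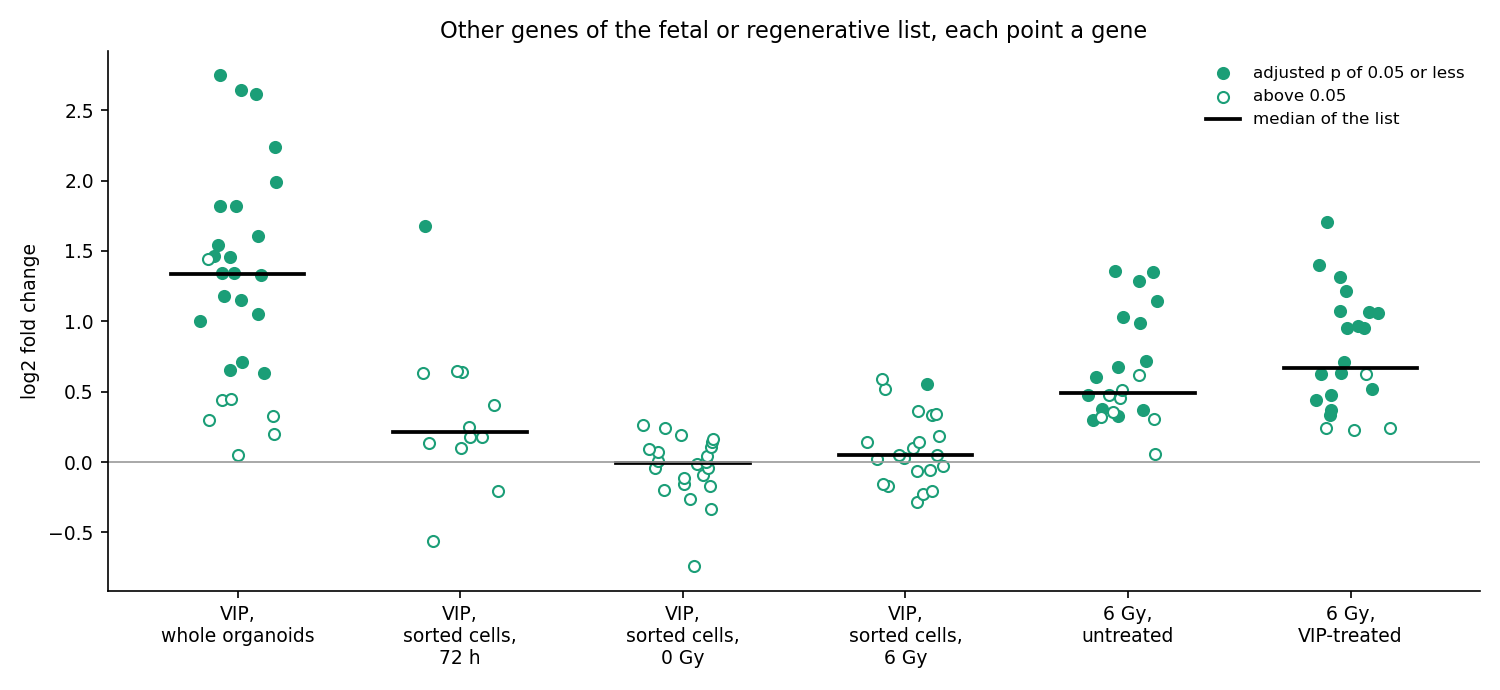
Log2 fold change (vertical axis) of the other genes of the fetal or regenerative list in the 6 comparisons, each point a gene, filled where the adjusted p was 0.05 or less, with the list's median as a bar. The medians are 1.34 with VIP in whole organoids, near 0 with VIP in the irradiation experiment, and 0.49 and 0.67 with irradiation.

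The 9 genes did not vary together to the same degree everywhere. As a description across samples centred on each mouse, log2 levels of the 36 pairs of genes had Pearson correlations of 0.87 to just under 1 in whole organoids (6 samples, set largely by treatment) and of 0.02 to 0.96 in the irradiation experiment (16 samples of 4 mice). In the latter Anxa1, Anxa3, Ly6a, Clu and Il1rn formed a close group, with 0.79 to 0.96 between any of them, whereas Sprr2a3 had values of 0.02 to 0.59 with the other genes. Low counts of Msln and Il33 limit what their correlations can show.

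Among 6728 genes that passed the count filter in all 3 experiments, those whose mouse-centred levels were most like the mean of the 9 genes over 30 samples were S100a11 (r = 0.96), S100a6 (0.94), Anxa2 (0.94), Krt7 (0.92) and Lgals3 (0.91). Samples of a mouse share an organoid line, and points of an experiment share its treatment contrast. Within the 16 samples of the irradiation experiment the values were 0.97, 0.93, 0.90, 0.94 and 0.81. S100a11, a calcium-binding protein that partners annexins, had log2 fold changes of 1.54 with VIP in whole organoids and of 0.48 and 0.52 with irradiation without and with VIP. For Lgals3, which encodes the lectin galectin-3, they were 2.60, 0.49 and 1.13. These genes were picked for their likeness, so no test is given for it.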

How the data were processed

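RNA of 31 samples in 37 libraries was analysed. UMIs of barcoded 3′ libraries had been mapped by the authors to GRCm38 (GENCODE M25) through the Drop-seq pipeline 1.0. Raw, not normalized counts for each gene and library were deposited, in tables of 27407, 20500 and 27547 genes. All columns were assigned to samples by the labels, and 0 UMIs lacked a gene name.

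Libraries that repeated a culture were added up. Counts were fitted in R 4.3.3 with edgeR 4.0.16 (TMM, filterByExpr by group, quasi-likelihood F tests blocked by mouse, Benjamini-Hochberg over all genes tested, threshold 0.05), separately for each experiment and jointly for the compartments. The scripts were tested on simulated data. The mouse comes from the labels. Deviations from group means correlated at 0.29 to 0.66 for samples of a mouse in whole organoids, 0.03 to 0.21 in sorted cells and −0.07 to 0.16 in the irradiation experiment. For samples of different mice the values were −0.57 to 0.35, −0.14 to 0.14 and −0.20 to 0.20, so the ranges overlapped in each experiment. Alternatives were DESeq2 1.42.0, other scalings, no filter, no block, mice or libraries left out, and only the groups compared. Mouse-centred levels are log2(CPM + 1). Promoter sequences are those of RefSeq (GRCm38.p6). Named were the 9 genes, the 4 of the other fetal or regenerative genes with the smallest p, Sprr and Ly6 relatives, ligand and receptor partners and the 5 genes most alike. The 9 genes and all lists were chosen with earlier results of these data known, so calls in them are no independent evidence.

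Replicates are mice. With the mouse as a block, p-values measure how far differences between treatments varied from mouse to mouse, not the spread of levels between organoid lines. In whole organoids the VIP-treated mouse without a control carries no information on the paired difference. Intervals and limits from counts cover counting error only.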

Additional observations from a re-analysis of the deposited data

Results flagged for a closer look

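A single sample stood far from the other 3 of its group in 8 of 62 groups of 4 samples (Dixon's critical value 0.829), where chance marks about 1 in 20. In non-irradiated VIP-treated cells mouse 3 was high for Anxa1 (41.7 CPM) and mouse 1 for Sprr2a3 (53.6 CPM, the others at 12.8 to 17.9 CPM). Among irradiated untreated cells, mouse 4 was high for Anxa3 (138 CPM). In irradiated VIP-treated cells mouse 3 was high for Il1rn (46.5 CPM, the others at 31.0 to 33.3 CPM) and for Il33 (7.65 CPM from 13 UMIs). In the 72 h sorted cells VIP-treated mouse 1 held all UMIs of Il33 and of Msln among VIP-treated samples (4.46 CPM each, 5 UMIs each), and untreated mouse 2 the single UMI of Msln (1.16 CPM). These 3 values rest on 5 UMIs or fewer.

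The log2 fold change with VIP in sorted cells less that in whole organoids was −1.67 for Emp1 and −1.82 for Sprr2a3. Both values hold the whole-organoid response that may have chosen the genes, so they are a description, and a difference between the compartments was not tested independently of that choice. Compartment also cannot be told apart from experiment, mouse line and depth.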

How the results depend on the processing

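Of 576 values of single genes under other settings, 520 kept their direction and their side of the threshold, 27 lost and 2 gained a call, and 27 changed sign. The count of the 9 genes called in whole organoids was 0 with the first library of VIP-treated mouse 3 left out, 6 without the mouse block and 9 in all other settings run. In non-irradiated cells the count with VIP was 1 in place of 0 without a filter and with only the 2 groups compared (Sprr2a3 in both). The compartment difference, called for 2 genes, was called for 1 with RLE and with library size scaling, for 0 in the fit without the mouse block, for 0 to 2 when a mouse was left out, and for 0 without the first library of VIP-treated mouse 3. In all compartment fits a mouse left out means the mice of that number in both experiments, which are different animals. The fits paired by mouse and those without the block differed otherwise in whole organoids, where Clu (1.69), Il33 (3.23) and Sprr2a3 (1.63) lost their call in edgeR and 99 in place of 614 genes were called. Leaving out the second library of VIP-treated mouse 3 raised that number to 1261, DESeq2 gave 300, no filter 979, and leaving out a mouse 363 to 1668. Over all genes, calls with VIP in sorted cells were 6, with 2 by DESeq2, 14 with library size scaling, 17 without a filter, 1 without the block and 3 to 17 without a mouse. In non-irradiated cells they were 74, with 182 without a filter, 34 without the block, 184 with only 2 groups and 31 to 42 without a mouse. In irradiated cells they were 22, with 12 by DESeq2 and without the block, 110 without a filter, 52 with only 2 groups and 5 to 34 without a mouse. Irradiation of untreated cells gave 445, with 281 by DESeq2 and 176 to 645 without a mouse, and of VIP-treated cells 777, with 489 by DESeq2 and 439 to 693 without a mouse. The interaction with irradiation gave 0, with 34 without a filter and 0 to 1 without a mouse. The compartment difference gave 15, with 9 with library size scaling, 55 without a filter, 0 without the block, 4 to 39 without a mouse, and 28, 27 and 1 with only first libraries, without the second and without the first library of VIP-treated mouse 3. Changes of sign were near 0 or rested on few counts. With VIP in sorted cells Emp1 was −0.47 to 0.19 with a mouse left out (0.19 without mouse 4), and Sprr2a3 was −0.01 with RLE or without a filter, −0.14 without the block, and −0.09 and −0.03 without mouse 3 and mouse 4. In non-irradiated cells Anxa3 was −0.22 to 0.05 (0.05 without mouse 1), and Il1rn −0.09 to 0.24 (−0.09 and −0.08 without mouse 3 and mouse 4). In irradiated cells Anxa3 was −0.01 to 0.13 and Emp1 −0.07 to 0.45, both negative without mouse 3, and Clu −0.35 to 0.04, positive without mouse 2. Sprr2a3 was −0.57 to 0.16, with 0.16 for irradiation of VIP-treated cells without mouse 1. For the interaction with irradiation Ly6a was −0.17 to 0.36 (−0.08 and −0.17 without mouse 1 and mouse 4), and Clu −0.24 to 0.38 (−0.24 and −0.03 without mouse 3 and mouse 4). For the compartments Anxa1 was 0.17 and Clu 0.68 without the first library of VIP-treated mouse 3, Clu was 0.33 without the block and −0.60 to 0.48 with a mouse left out (0.48, 0.05 and 0.02 without mouse 1, 2 and 4). Msln was −6.11 to 2.93 (2.93 without mouse 2), Il33 −2.07 with DESeq2 and −3.77 to 2.65 with a mouse left out (−3.77 without mouse 1), and Il1rn −1.99 to 0.01 (0.01 without mouse 3). The cause of these changes was not tested. A fit of only 2 groups does not apply to the interactions. Depth limits the sorted cells at 72 h, where 7 of the 9 genes were below the filter.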

Other observations

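S100a6, which is not among the 9 genes, was called in 5 of 6 comparisons, in a list drawn up with earlier results of these data known. It was higher with VIP in whole organoids (2.62 on the log2 scale), in sorted cells at 72 h (1.68) and in irradiated cells (0.56), and with irradiation without and with VIP (0.67 and 0.96). In non-irradiated cells of the irradiation experiment VIP gave 0.26 (adjusted p = 0.217 in edgeR). Krt7, a keratin of simple epithelia, and Lgals3, picked for their likeness to the 9 genes, had differences between compartments of −1.15 and −2.29 on the log2 scale (sorted cells less whole organoids).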
